A study of Mus musculus with 24 samples.

Results

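A set of 7 transcription factors that help to define the tubule cells of the kidney was followed in RNA of whole kidneys from 24 mice: Hnf4a, Hnf4g, Pax8, Maf, Nr1h4, Esrra and Tfec. They were chosen by name, and all 7 were found among the 55335 genes of the count files. All mice were on the C57BL/6J background and carried floxed Pex5 alleles. The cKO mice (Pex5lox/lox/Pax8-rtTA/LC1) also carried the Pax8-rtTA and LC1 transgenes, through which doxycycline (DOX) removes Pex5 in the renal tubule, and the Ctrl mice were Pex5lox/lox littermates without these transgenes. Both genotypes received DOX for 2 weeks from 8 weeks of age, and the kidneys were taken 4 weeks later. There were 6 mice in each of 4 groups, called Ctrlm and cKOm for males and Ctrlf and cKOf for females. The comparison of cKO with Ctrl kidneys asked how the loss of tubular peroxisome formation affects the kidney in each sex.

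Nuclear receptors and other transcription factors fix the identity of tubule cells by keeping segment-specific genes on. HNF4A and its paralog HNF4G bind the same DNA element, and HNF4A is known as a main driver of proximal tubule transporters, metabolic enzymes and brush border proteins. PAX8 acts with PAX2 in the formation of the nephron and remains on along the adult tubule, which is why its promoter is used to direct transgenes there. MAF is a large basic leucine zipper protein, NR1H4 (FXR) is the bile acid receptor, ESRRA is an orphan receptor that acts with PGC-1 coactivators on mitochondrial genes, and TFEC belongs to the MiT family of lysosomal and macrophage regulators together with MITF, TFEB and TFE3. Several of these factors are not restricted to the tubule, since hepatocytes make HNF4A and FXR and macrophages make MAF and TFEC.

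The depth was 19376152 to 28470831 reads on genes per kidney, with a median of 21592602. Levels are given as CPM, the counts scaled to a common library size by edgeR's TMM method. Tests covered the 16092 genes that reached 1 CPM in any kidney, all 7 factors among them, with p values adjusted over all of these genes and a threshold of 0.05, and genotype effects are given as log2 fold changes of cKO over Ctrl (log2FC) with their standard error (SE). Pex5 itself fell from 54.3 ± 4.63 CPM in Ctrlm to 43.7 ± 1.94 in cKOm kidneys (SD, n = 6, log2FC -0.31, edgeR adjusted p = 0.0219) and stood at 50.3 ± 6.97 in Ctrlf and 43.6 ± 3.55 in cKOf kidneys (log2FC -0.21, edgeR adjusted p = 0.177). These Pex5 counts cover all exons and all cells of the kidney, so they do not measure how complete the deletion was. By immunoblot, the authors found almost no PEX5 protein in cKOm kidneys and a reduced amount in cKOf kidneys. They also found some full-length Pex5 mRNA left in cKOf kidneys, and propose that excision was incomplete in females. They leave it possible, too, that peroxisomes serve the kidney differently in each sex. By electron microscopy, proximal tubules of both sexes were nearly free of peroxisomes. Because whole kidneys were sequenced, fewer cells of a type and less RNA per cell cannot be told apart. Hepatocyte markers, a mean over 12 genes such as Alb, stood apart in 5 male kidneys (Ctrlm 1 to 4 and cKOm 4), where their mean log2 CPM was over 4. Results in males are given without these kidneys where they differ. Between cKOm and Ctrlm, 1456 genes were called with all kidneys and 599 without these 5, so shares of all tested genes given below hold for the fit with all kidneys.

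Tfec was the only one of the 7 factors with a called genotype effect, lower in cKOm than in Ctrlm kidneys, and none was called in females. The other 6 had no called genotype effect in either sex, with intervals that leave room for modest shifts. With exact permutation tests on single factors (6 mice against 6, both sides, p not adjusted), p was under 0.05 for Tfec, Maf (0.00866) and Hnf4a (0.0195) in males and for Hnf4a (0.00649) and Nr1h4 (0.0455) in females, and between 0.113 and 0.723 for the other 9 comparisons. Nr1h4 and Tfec differed between male and female controls. The sequences upstream of 4 of the factors are shown first, since the Pax8 promoter directs the deletion, Tfec carries the genotype effect, Nr1h4 carries the sex difference and Hnf4a was the most abundant. RefSeq promoters on GRCm38.p6 were at hand for 5 of the 7 factors, Hnf4a with a pair of start sites, and 250 bases before the start are printed from 5′ to 3′ on the strand of the gene. In all, 4 motifs were searched on both strands, and their letters are in capitals where they occur: GTTAAT, a half-site of the HNF1 factors, in 6.43% of 32851 promoters of the same length; AGGTCA, a nuclear receptor half-site, in 14% of them; CACGTG, the E-box read by MiT factors, in 6.02%; and TGCTGA, a MAF half-site, in 16.1%.

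Hnf4a, chr2:163546905-163547154, plus strand: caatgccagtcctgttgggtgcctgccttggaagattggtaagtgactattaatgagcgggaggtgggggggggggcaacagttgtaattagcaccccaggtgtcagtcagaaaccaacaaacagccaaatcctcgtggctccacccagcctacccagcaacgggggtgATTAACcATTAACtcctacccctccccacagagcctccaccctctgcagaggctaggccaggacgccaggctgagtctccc
Pax8, chr2:24475600-24475849, minus strand: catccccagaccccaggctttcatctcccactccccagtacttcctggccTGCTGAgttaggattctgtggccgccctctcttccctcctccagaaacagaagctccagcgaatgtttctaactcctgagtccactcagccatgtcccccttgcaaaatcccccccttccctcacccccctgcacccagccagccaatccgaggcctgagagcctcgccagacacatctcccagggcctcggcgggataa
Nr1h4, chr10:89506659-89506908, minus strand: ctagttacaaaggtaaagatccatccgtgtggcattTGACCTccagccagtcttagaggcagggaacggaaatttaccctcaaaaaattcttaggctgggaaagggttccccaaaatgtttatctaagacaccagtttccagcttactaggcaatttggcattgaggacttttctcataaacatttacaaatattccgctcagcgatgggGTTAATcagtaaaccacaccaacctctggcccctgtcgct
Tfec, chr6:16898442-16898691, minus strand: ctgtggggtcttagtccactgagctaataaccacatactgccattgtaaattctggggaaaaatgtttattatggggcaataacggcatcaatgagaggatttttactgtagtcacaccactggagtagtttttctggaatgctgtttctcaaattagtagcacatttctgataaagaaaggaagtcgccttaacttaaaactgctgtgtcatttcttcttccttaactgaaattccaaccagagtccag

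The Hnf4a sequence belongs to the downstream start site, the one known for use in liver and kidney, and held the HNF1 half-site in its reverse form, ATTAAC, at 81 to 76 and again at 74 to 69 bases before the start. The Pax8 sequence held the MAF half-site at 200 to 195 bases. The Nr1h4 sequence, which lies inside the annotated span of the gene, held GTTAAT at 40 to 35 bases and TGACCT, the reverse form of the nuclear receptor half-site, at 214 to 209 bases. None of the 4 motifs occurred in the Tfec sequence. These matches are descriptions of letters and were not tested for binding.

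The 7 genes lie on 6 chromosomes of GRCm38. Hnf4a occupies chromosome 2 from 163506808 to 163572910 on the plus strand, and Pax8 lies on the same chromosome from 24420560 to 24475599 on the minus strand. Hnf4g spans 3508030 to 3658052 of chromosome 3, plus strand. Maf (chromosome 8, 115682942 to 115707794), Nr1h4 (chromosome 10, 89454234 to 89533585), Esrra (chromosome 19, 6910977 to 6921813) and Tfec (chromosome 6, 16833373 to 16898441) are read from the minus strand. Reads were counted over all exons of a gene. Exons of Pax8, Maf and Esrra share 367, 440 and 73 bases with a gene on the opposite strand (Gm13415, Gm15655 and Trmt112), so that a small part of their counts is uncertain as the strand setting of the counting is not given in the sources used here. The highest count of Gm13415 was 21 against at least 1578 for Pax8, and that of Gm15655 was 24 against at least 5467 for Maf. Trmt112 had 126 to 297 counts against at least 999 for Esrra. Of all 50-base stretches, 0 were shared with another gene for Hnf4a, Hnf4g, Nr1h4 and Tfec.

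Per kilobase of exon, Hnf4a was by far the most abundant of the 7, with a median of 187 CPM per kb over the 24 kidneys, above 99.2% of the tested genes. Nr1h4 followed with 47.5 CPM per kb and Maf with 44.1, above 95.5% and 95.1% of the tested genes. Pax8 stood at 15.9 CPM per kb and Esrra at 13.5. Hnf4g and Tfec were the scarcest, with medians of 3.44 and 2.52 CPM per kb, near the middle of all tested genes. Hnf4g rested on 68 to 342 reads per kidney and Tfec on 209 to 477.

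**Figure D1:**
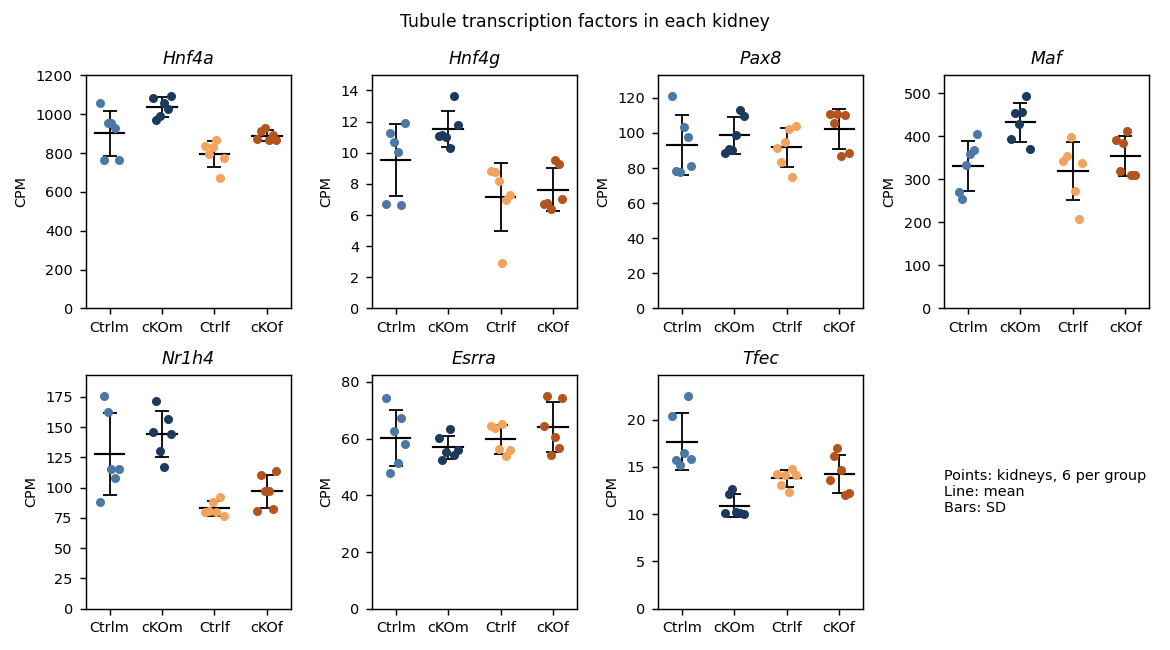
CPM of each factor (vertical axis, from 0) in each kidney of the 4 groups, with the mean as a line and the SD as bars, 6 kidneys per group. The cKOm points of Tfec all lie at or under 12.7 CPM and the Ctrlm points at or above 15.2 CPM, while the genotypes overlap for the other factors in each sex.

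Tfec, the MiT family member, ranged from 15.2 to 22.5 CPM in Ctrlm kidneys with a median of 16.1. In cKOm kidneys it ranged from 10.04 to 12.7 CPM with a median of 10.2. Every cKOm kidney therefore lay below every Ctrlm kidney, which was so in either direction for 7.38% of all tested genes. The log2FC was -0.70 (SE 0.11, edgeR quasi-likelihood test, adjusted p = 1.2e-04), or -38.3% with a 95% interval from -47.2% to -27.8%. An exact permutation test on the same 12 males, on both sides, gave p = 0.00216, the smallest value it can give at this number of mice. This was 1 call among 7 factors in males, against 9.05% of all tested genes, and 4.9% were called lower.

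In females, Tfec ranged from 12.4 to 14.8 CPM in Ctrlf kidneys with a median of 14.1, and from 12.1 to 16.97 with a median of 14.1 in cKOf kidneys. The female groups overlapped almost fully, and 0.559% of all tested genes had female groups without overlap. The log2FC was 0.05 (SE 0.11, edgeR adjusted p = 0.890), with a 95% interval from -11.4% to 20.99%. The genotype effect thus differed between the sexes by -0.75 on the log2 scale (SE 0.16, edgeR test of the interaction, adjusted p = 0.00575), 1 such call among the 7 factors against 2.31% of all tested genes, 1.49% in this direction. The loss of PEX5 was less complete in cKOf than in cKOm kidneys, as given above. The part of this in the difference between the sexes was not tested, nor was that of a role of peroxisomes that differs by sex.

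The order of the 4 groups for Tfec was Ctrlm, cKOf, Ctrlf and cKOm, from 17.7 ± 3.01 to 10.9 ± 1.18 CPM (mean ± SD, n = 6), and each neighbouring pair in that order overlapped. Male controls were above female controls, with no overlap, as for 7.35% of all tested genes, and a log2 difference of 0.36 (SE 0.11, edgeR adjusted p = 0.0227). The call was lost without Ctrlm 1 (adjusted p = 0.0636) or Ctrlm 5 (0.0799), the highest values of that group. In cKO kidneys the order was the other way, with males lower by a log2 difference of -0.39 (edgeR adjusted p = 0.0249). This call, too, depended on single kidneys, since the adjusted p was above 0.05 without cKOm 1, 4, 5 or 6 or cKOf 2 or 3, and reached 0.0678.

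The male fall of Tfec did not depend on a single kidney, with adjusted p values from 9.0e-05 to 5.4e-04 as each of the 24 was left out. Without the 5 kidneys that were high in hepatocyte markers, which left 2 Ctrlm and 5 cKOm mice, the male log2FC was -0.83 (edgeR adjusted p = 0.00425) and that of the interaction -0.88 (adjusted p = 0.0230). Macrophages also make TFEC, and 1 of 6 macrophage markers, Csf1r, was called lower in cKOm kidneys, as were 4.9% of all tested genes. Without the 5 kidneys 0 of these markers were called in males, and with the level of hepatocyte markers as a covariate also 0. The summed level of these markers ranged from 92.9 to 139 CPM in Ctrlm and from 70.9 to 102 CPM in cKOm kidneys, and from 96.5 to 194 CPM in Ctrlf and 81.8 to 117 CPM in cKOf kidneys. The median log2FC of the 6 was -0.48 in males and -0.43 in females, where Tfec was at 0.05. The part of these cells in the male value was not tested.

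The 3 relatives of Tfec in the MiT family, Mitf, Tfeb and Tfe3, are among 18 paralogs and dimer partners of the factors that were followed as a list. Of its 15 tested genes, 0 were called between genotypes in males and 0 in females by edgeR, and the same held for limma-voom and DESeq2. At an unadjusted p under 0.05 there were 4 in males and 0 in females. Of all tested genes, 9.05% were called in males and 0.851% in females. The list also holds the RXR partners of FXR, the other ERR receptors, PAX2 and the small MAF proteins.

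Hnf4a, the main factor of the proximal tubule, ranged from 763 to 1056 CPM in Ctrlm kidneys with a median of 940. In cKOm kidneys the range was 972 to 1095 CPM and the median 1044. The groups overlapped, with 5 of 6 Ctrlm kidneys below the lowest cKOm kidney in the plot of CPM by group. The log2FC of 0.20 (SE 0.08, edgeR adjusted p = 0.149) did not pass, and its 95% interval ran from 3.199% to 28.2% before any account of the number of genes tested. In females, Hnf4a ranged from 674 to 867 CPM in Ctrlf with a median of 814, and from 866 to 929 CPM with a median of 882 in cKOf kidneys. These groups met at their edges, and the value of 0.16 (SE 0.08, edgeR adjusted p = 0.302) had an interval from 0.212% to 24.5%.

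In both sexes the Hnf4a interval was thus above 0 and the estimate short of the threshold over all genes. In fits with another tool, filter, scaling, adjustment or covariate or without the hepatocyte-rich kidneys, the male value stayed between 0.18 and 0.28. Its adjusted p was then between 0.0867 and 0.393. As single kidneys were left out, the male value ran from 0.13 to 0.25 and its edgeR adjusted p from 0.0599 to 0.423.

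Hnf4g, the scarcer paralog, ranged from 6.62 to 11.9 CPM in Ctrlm (median 10.4), 10.3 to 13.7 in cKOm (median 11.1), 2.93 to 8.81 in Ctrlf (median 7.73) and 6.39 to 9.53 CPM in cKOf kidneys (median 6.91). The Ctrlf kidney of replicate 4 lay far below the others at 2.93 CPM. The log2FC was 0.27 for males (SE 0.19, edgeR adjusted p = 0.558) and 0.09 for females (SE 0.19, adjusted p = 0.885), with 95% intervals from -8.32% to 57.6% and from -19.0% to 40.4%.

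Within a kidney, the reads of Hnf4g were 1.09% of those of Hnf4a at the median in both male groups, 1.01% in female controls and 0.793% in cKOf kidneys. This ratio does not depend on scaling between libraries. It differed between genotypes by 0.09 on the log2 scale in males (exact permutation test on both sides, p = 0.695, n = 6 per group) and by -0.01 in females (exact permutation p = 0.991). Without Ctrlf 4, the kidney with the low Hnf4g value, the female difference was -0.27 (exact permutation p = 0.0736).

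Pax8, whose promoter directs the deletion, ranged from 77.9 to 121 CPM in Ctrlm (median 89.3), 88.6 to 113 in cKOm (median 94.96), 75.2 to 104 in Ctrlf (median 93.3) and 87.1 to 111 CPM in cKOf kidneys (median 108). The 4 groups overlapped throughout. The log2FC was 0.08 for males (SE 0.11, edgeR adjusted p = 0.798), with an interval from -9.27% to 23.3%, and 0.15 for females (SE 0.11, adjusted p = 0.544), from -4.56% to 29.7%. The cKO mice carry a Pax8-rtTA transgene that the controls lack, and reads from any exon of Pax8 within it could not be told apart from those of the gene itself.

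The 9 genes linked to PAX8 in kidney development and the adult tubule, such as Pax2, Lhx1, Ret and the kidney cadherin Cdh16, had 0 calls in either sex by edgeR, limma-voom or DESeq2. At an unadjusted p under 0.05 there were 2 in males and 1 in females. Of all tested genes, 9.05% were called in males and 0.851% in females. The median log2FC of the 9 was 0.12 in males and -0.09 in females, beside 0.01 and 0.00 for all tested genes.

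Maf, the large leucine zipper factor, ranged from 255 to 405 CPM in Ctrlm with a median of 346, and from 370 to 494 CPM with a median of 441 in cKOm kidneys. Only the highest Ctrlm kidney reached into the cKOm range. The log2FC was 0.38 (SE 0.13, edgeR adjusted p = 0.0932), the largest positive value of the 7 factors in males and short of the threshold, with an interval from 8.54% to 57.0%. It was 0.11 (edgeR adjusted p = 0.857) without the hepatocyte-rich kidneys. In those male controls Maf was at 271, 255, 333 and 359 CPM, and in the other 2 controls at 367 and 405 CPM. In females the range was 208 to 399 CPM in Ctrlf (median 340) and 310 to 413 in cKOf kidneys (median 353), with a log2FC of 0.15 (SE 0.13, edgeR adjusted p = 0.646) and an interval from -7.59% to 33.6%. Gpx3, a plasma glutathione peroxidase made in the proximal tubule and the single gene listed for MAF, was not called, at a log2FC of 0.29 among males and 0.14 among females.

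Nr1h4, the bile acid receptor, ranged from 88.4 to 176 CPM in Ctrlm (median 115), 117 to 172 in cKOm (median 145), 76.3 to 91.9 in Ctrlf (median 80.4) and 80.8 to 113 CPM in cKOf kidneys (median 97.2). Male kidneys were higher than female kidneys in both genotypes. Among controls the log2 difference was 0.62 (SE 0.13, edgeR adjusted p = 9.0e-04), or 54.2% higher in males with an interval from 28.2% to 85.5%, and only Ctrlm 1 reached into the female range. Among cKO kidneys it was 0.58 (SE 0.13, edgeR adjusted p = 0.00431), or 49.0% higher, and the groups did not overlap, as for 6.77% of all tested genes. Nr1h4 and Tfec were the 2 of 7 factors called between male and female controls, both higher in males, against 16.8% of all tested genes, 8.71% higher and 8.11% lower in males. They were also the 2 of 7 called between cKOm and cKOf kidneys, Nr1h4 higher and Tfec lower in males, against 8.14% of all tested genes, 4.14% higher and 4% lower.

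All 12 hepatocyte markers were higher in male than in female controls, with a median log2 difference of 3.37, and Alb ranged from 15.1 to 662 CPM in Ctrlm and from 21.6 to 56.1 CPM in Ctrlf kidneys. Hepatocytes express Nr1h4. Without the 5 kidneys high in these markers, the log2 difference of Nr1h4 was 0.46 between controls (edgeR adjusted p = 0.0218) and 0.62 between cKO kidneys (adjusted p = 1.5e-04). Its genotype effect was not called in males, with a log2FC of 0.18 (SE 0.13, edgeR adjusted p = 0.562) and an interval from -5.82% to 36.0%. The male value was 0.39 (edgeR adjusted p = 0.170) without the 5 kidneys, and among fits that left out a single kidney it ran from 0.09 without Ctrlm 1 to 0.29 without Ctrlm 2. In females it was 0.23 (SE 0.13, adjusted p = 0.420), from -2.64% to 40.8%.

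**Figure D2:**
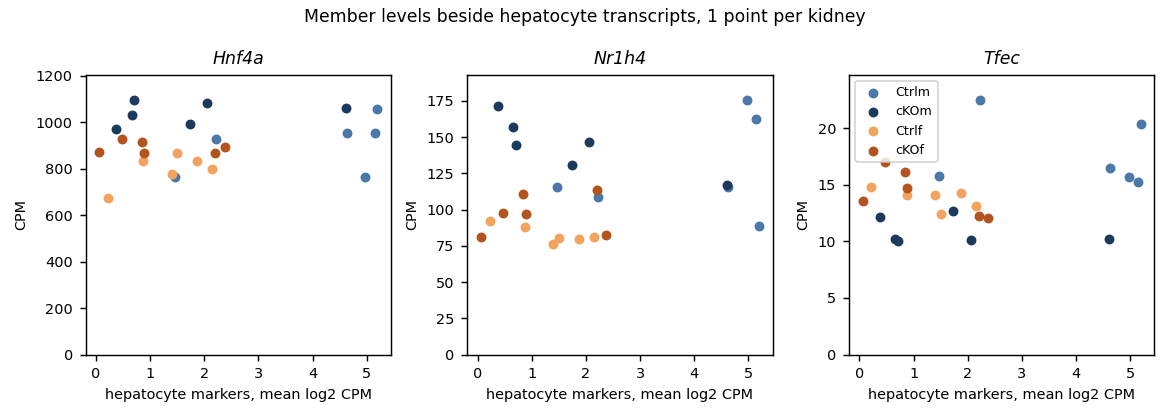
CPM of Hnf4a, Nr1h4 and Tfec (vertical axis, from 0) against the mean log2 CPM of 12 hepatocyte markers (horizontal axis), 1 point per kidney. A set of 5 male kidneys lies above 4 on the horizontal axis, 4 of them Ctrlm, and the cKOm points of Tfec lie below the Ctrlm points on both sides of that level.

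Hnf4a and Hnf4g were also compared between the sexes. Hnf4a was higher in males by 0.18 among controls (edgeR adjusted p = 0.113) and by 0.22 among cKO kidneys (adjusted p = 0.0703), and Hnf4g by 0.42 (adjusted p = 0.148) and 0.59 (adjusted p = 0.0546). None of these passed by edgeR, although cKOm and cKOf kidneys did not overlap for either gene, as was so for 6.77% of all tested genes. DESeq2 called both among cKO kidneys, and Hnf4a among controls (adjusted p = 0.0493). With the level of hepatocyte markers as a covariate the Hnf4a difference among controls was 0.09 (adjusted p = 0.655), and without the 5 kidneys it was 0.11 (adjusted p = 0.550). Hepatocytes express Hnf4a, which ranged from 764 to 1056 CPM in the 4 Ctrlm kidneys high in their markers and was at 927 and 763 CPM in the other 2, and the part of these cells in the sex difference was not tested.

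Esrra, the orphan receptor of mitochondrial genes, ranged from 47.8 to 74.4 CPM in Ctrlm (median 60.3), 52.4 to 63.4 in cKOm (median 55.5), 53.7 to 65.1 in Ctrlf (median 59.8) and 54.1 to 74.9 CPM in cKOf kidneys (median 62.5). These groups lay within each other. The log2FC was -0.08 for males (SE 0.10, edgeR adjusted p = 0.771) and 0.10 for females (SE 0.10, adjusted p = 0.706). The 95% intervals ran from -18.0% to 8.81% and from -6.91% to 23.5%. Without the hepatocyte-rich kidneys the male value was -0.21 (edgeR adjusted p = 0.518).

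**Figure D3:**
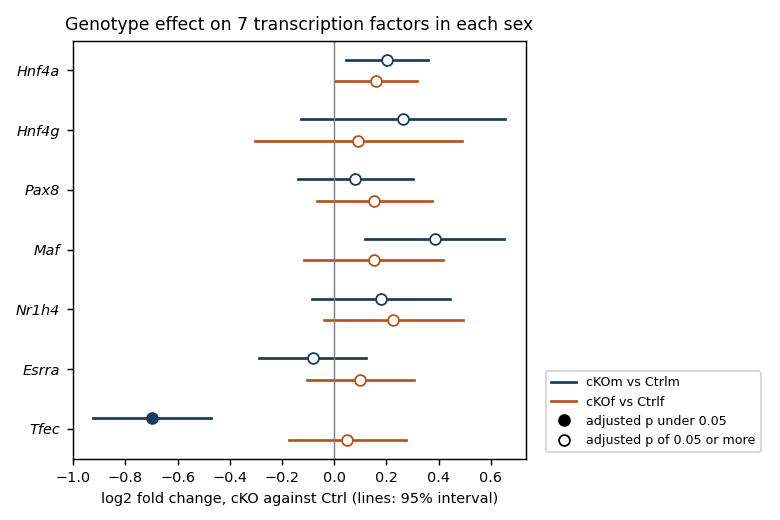
Log2 fold change of cKO against Ctrl kidneys (horizontal axis) for each factor in males and females, with 95% intervals from edgeR that are not adjusted for the number of genes. Tfec in males, at -0.70, is the filled point, and the other 13 intervals include 0 or, for Hnf4a in both sexes and Maf in males, lie just above it.

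In females, 0 of 7 factors were called by edgeR, limma-voom or DESeq2, and 1, Hnf4a, had an unadjusted p under 0.05, with 0.851% of all tested genes called. All 7 female estimates were above 0, between 0.05 and 0.23, and 5 of the 7 male estimates were. As single kidneys were left out, the female estimate reached -0.0767 for Hnf4g and -0.00524 for Tfec. Ctrlf 5, with the largest TMM factor (1.14), was the lowest female control for Hnf4a, Pax8, Maf and Esrra and the highest for Nr1h4 and Tfec. The 7 values come from the same kidneys, and a joint shift was not tested. The median over the 7 was 0.18 in males and 0.15 in females, beside 0.01 and 0.00 for all tested genes. Apart from Tfec, no factor had a called difference between the male and the female effect, with interaction values from -0.18 for Esrra to 0.23 for Maf.

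Genes known as HNF4 targets were mostly proximal tubule transporters and enzymes, and 7 of the 21 on the list are also among the 14 proximal tubule markers. In males, 9 of the 21 were lower and 1 was higher in cKOm kidneys, where 4.9% and 4.14% of all tested genes were, and the median log2FC was -0.19. Ass1, an enzyme of arginine synthesis, fell from 1552 ± 179 to 874 ± 59.0 CPM (SD, n = 6, log2FC -0.83, edgeR adjusted p = 5.5e-06), with no overlap of the groups, as for 7.38% of all tested genes. Slc22a6, the organic anion transporter OAT1, fell from 759 ± 144 to 485 ± 52.4 CPM (log2FC -0.65, edgeR adjusted p = 4.2e-04). G6pc, the last enzyme of glucose release, fell from 282 ± 75.5 to 173 ± 14.2 CPM (log2FC -0.71, adjusted p = 0.0249), a call lost without Ctrlm 2, 3 or 5 or cKOm 3 or 6. It was also lost without the hepatocyte-rich kidneys (log2FC -0.60, edgeR adjusted p = 0.325).

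Apom, an apolipoprotein made in liver and proximal tubule, ranged from 7.41 to 52.9 CPM in Ctrlm and from 4.69 to 16.5 CPM in cKOm kidneys (log2FC -1.75, edgeR adjusted p = 0.00732). Cdhr2, a cadherin of the brush border, was the gene that rose, from 38.7 ± 6.54 to 53.1 ± 6.36 CPM (SD, n = 6, log2FC 0.46, edgeR adjusted p = 0.00189). In females 1 of 21 was called, Ass1, from 1180 ± 192 to 881 ± 142 CPM (log2FC -0.42, edgeR adjusted p = 0.0140), and the median was -0.08. Of all tested genes, 0.851% were called in females. Without the hepatocyte-rich kidneys 4 of the 21 were called lower in males, Ass1 (-0.92), Slc22a6 (-0.72) and Apom (-2.43) among them. Of all genes, 599 were called in that fit, in place of 1456.

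The 9 HNF4 targets called lower in males, with 11 of the 21 not called, stood beside an Hnf4a estimate above 0 that was not called. Whether the targets follow Hnf4a was not tested. Of the 14 proximal tubule markers, 8 were lower and 0 higher in cKOm kidneys, beside 4.9% and 4.14% of all tested genes. Their median log2FC was -0.36. In the fit without the hepatocyte-rich kidneys 4 of 14 were called, and 599 of all genes in place of 1456. Their summed level ranged from 35718 to 56477 CPM in Ctrlm and from 20914 to 24479 CPM in cKOm kidneys. Kap was a large part of this sum, with means of 19024 CPM in Ctrlm and 6854 CPM in cKOm kidneys. Acsm2 had means of 6714 and 3601 CPM. Both were called higher in male than in female controls. The 6 markers not called were Miox (0.04), Slc5a2 (0.10), Slc5a12 (0.63), Slc13a3 (-0.09), Cubn (-0.17) and Hao2 (-0.45). The female sums ranged from 19254 to 21410 CPM in Ctrlf and from 17813 to 20606 CPM in cKOf kidneys. The part of the abundance of proximal tubule cells in the values of the target genes was not tested.

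**Figure D4:**
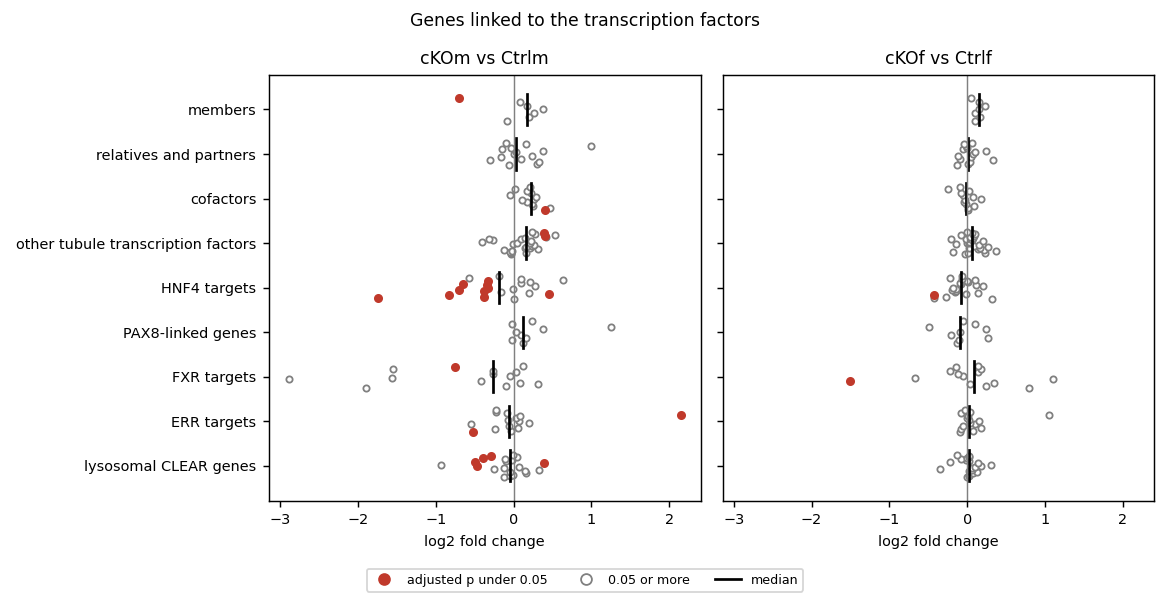
Log2 fold change of cKO against Ctrl kidneys (horizontal axis, the same scale in both panels) for the 7 factors and 8 lists of related genes, 1 point per tested gene with the median as a bar. Filled points are calls; in males 9 HNF4 targets lie below 0 and 1 above, and Pdk4 among the ERR targets is at 2.15, while in females 2 genes are filled.

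Of 14 tested genes known to respond to bile acid signalling through FXR, 1 was lower in cKOm kidneys and 1 in cKOf kidneys. Of all tested genes, 4.9% were called lower in males and 0.46% in females. Without the hepatocyte-rich kidneys 2 of the 14 were called in males, in a fit that called 599 genes in place of 1456. Slc51a, a subunit of the basolateral bile acid carrier, fell from 76.1 ± 22.9 to 45.3 ± 5.84 CPM in males (SD, n = 6, log2FC -0.75, edgeR adjusted p = 0.0115), and its log2FC was -1.21 without the hepatocyte-rich kidneys. Baat, which conjugates bile acids in peroxisomes, fell in females from 9.83 ± 6.88 to 3.44 ± 1.07 CPM (log2FC -1.51, edgeR adjusted p = 0.00294). Ctrlf 1 held 23.7 CPM of Baat and the other Ctrlf kidneys at most 9.14 CPM, and all of them lay above the 5.09 CPM that was the highest of the cKOf kidneys. Female groups did not overlap for 0.559% of all tested genes. Nr1h4 itself was not called in either sex, as given above.

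Of 15 tested ERR target genes, Pdk4, a kinase that shuts off pyruvate oxidation, was higher and Acadm, the medium-chain acyl-CoA dehydrogenase, was lower in cKOm kidneys. Of all tested genes, 4.14% were called higher and 4.9% lower in males. Pdk4 rose from 33.8 ± 28.03 to 150 ± 37.9 CPM (SD, n = 6, log2FC 2.15, edgeR adjusted p = 3.4e-04), and Ctrlm 6 alone held 90.3 CPM, inside the cKOm range. Without the hepatocyte-rich kidneys, which left Ctrlm 6 as 1 of 2 controls, the value was 1.57 (edgeR adjusted p = 0.147). Acadm fell from 1430 ± 357 to 994 ± 24.98 CPM (log2FC -0.52, adjusted p = 0.0153; 0.0565 without Ctrlm 5), and the value was -0.84 without the hepatocyte-rich kidneys. The median of the 15 was -0.06 in males and 0.02 in females, where edgeR called 0 of 15, DESeq2 0, limma-voom 1, and 1 had an unadjusted p under 0.05.

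Lysosomal genes that carry the element read by MiT factors, 21 in all, held 4 calls below and 1 above Ctrlm levels. Of all tested genes, 4.9% were called lower and 4.14% higher in males. Among the 4, the lysosomal enzymes Glb1 (140 ± 20.1 to 101 ± 3.91 CPM) and Neu1 (622 ± 78.1 to 474 ± 23.6 CPM) and the autophagy receptor Sqstm1 (443 ± 41.5 to 363 ± 12.0 CPM) fell, each with no overlap of the groups (SD, n = 6, edgeR adjusted p from 7.7e-04 for Glb1 to 0.0212 for Neu1). Male groups did not overlap for 7.38% of all tested genes, and these 3 were named because they were called. Hexa, a lysosomal enzyme subunit, rose from 62.1 ± 8.57 to 81.8 ± 11.3 CPM (log2FC 0.40, adjusted p = 0.0174). Neu1 was not called without Ctrlm 3 (adjusted p = 0.0690) or cKOm 6 (0.0518), nor Hexa without Ctrlm 3 (0.0522) or cKOm 5 (0.0730) or 6 (0.0567). Without the hepatocyte-rich kidneys Glb1 alone was called. The median of the 21 was -0.05 in males and 0.02 in females, and 0 were called in females by edgeR, limma-voom or DESeq2, with 2 at an unadjusted p under 0.05.

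Among 28 other transcription factors of the tubule, Pou3f3, a factor of the loop of Henle and distal nephron, rose from 86.2 ± 9.90 to 114 ± 13.8 CPM in males (SD, n = 6, log2FC 0.41, edgeR adjusted p = 0.0170). Tfap2b, a factor of the distal tubule, rose from 61.3 ± 8.89 to 80.3 ± 4.72 CPM (log2FC 0.39, adjusted p = 0.0240). These 2 of 28 called higher stand beside 4.14% of all tested genes. The remaining 26 were not called in males and all 28 were not called in females, where limma-voom and DESeq2 also gave 0 and 1 had an unadjusted p under 0.05. Pou3f3 was not called without cKOm 4 (adjusted p = 0.0597), and Tfap2b not without Ctrlm 2, 3, 5 or 6 or cKOm 4, 5 or 6 (at most 0.0696). Without the hepatocyte-rich kidneys, which left 2 Ctrlm mice, 0 of the 28 were called, with values of 0.33 (adjusted p = 0.304) for Pou3f3 and 0.53 (0.0642) for Tfap2b. Of 6 markers of the thick ascending limb 1 was called in males, the sodium-potassium-chloride carrier gene Slc12a1 (log2FC 0.33, edgeR adjusted p = 0.0116). Without the hepatocyte-rich kidneys 0 of the 6 were called, and with the hepatocyte marker covariate also 0. The summed level of the 6 ranged from 3786 to 4669 CPM in Ctrlm and from 4425 to 5150 CPM in cKOm kidneys. Of 5 markers of the distal convoluted tubule 0 were called, with sums from 1307 to 2581 CPM in Ctrlm and from 2125 to 2641 CPM in cKOm kidneys. The part of these cells in the values of Pou3f3 and Tfap2b was not tested.

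Of 13 coactivators and corepressors of the receptors, Crebbp rose from 36.6 ± 3.79 to 48.5 ± 6.23 CPM in males (SD, n = 6, log2FC 0.41, edgeR adjusted p = 0.0435). This was 1 call among 13 genes, beside 4.14% of all tested genes called higher in males. The call was lost with limma-voom and in most other alternatives, with values between 0.35 and 0.42 and an adjusted p of up to 0.428. It was also lost as single kidneys were left out, 17 of 24 in turn, with an adjusted p of up to 0.129 (without cKOm 4). The median of the 13 was 0.22 in males and -0.02 in females, where 0 were called by edgeR, limma-voom and DESeq2 and 0 had an unadjusted p under 0.05.

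The factors also varied from kidney to kidney within groups. Deviations of log2 CPM from the group means were correlated over the 24 kidneys, as a description, since genes of a library share its depth and quality. Hnf4a and Pax8 deviated together (Pearson r = 0.66, Spearman rho = 0.50), as did Hnf4a and Esrra (0.52 and 0.38), and Pax8 and Nr1h4 deviated in opposite directions (-0.61 and -0.51). For Tfec the r farthest from 0 was -0.27, with Hnf4g.

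Of 9432 genes with a mean of at least 10 CPM, those most like Hnf4a in this sense were Fam102a (r = 0.89), Tex2 (0.85) and Rbm10 (0.82). For Pax8 they were the heat shock genes Hspa1a (0.81) and Hsph1 (0.79) and Acbd3 (0.78). Those for Hnf4g were Zfp729a (0.87), Bmpr2 (0.86) and Mtx3 (0.85), and those for Maf were Usp3 (0.85), 2900097C17Rik (0.83) and Pcmtd2 (0.82). For Nr1h4 they were the ketone body enzyme Aacs (0.81), the retinol dehydrogenase Rdh16 (0.75) and Pyroxd2 (0.75), for Esrra Dnlz (0.88), Rab35 (0.81) and Jund (0.80), and for Tfec Hdac2, Aggf1 and Mfsd14a (0.71, 0.71 and 0.70). By Spearman rho, 8 of these 21 were again among the 3 most like genes of their factor.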

How the data were processed

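RNA-seq of 24 whole kidneys was used, 6 per group. The authors deposited whole counts of reads per gene, not normalized, 1 file per kidney; per the labels, cutadapt 1.8, STAR 2.5.3a and HTSeq 0.9.1 on GRCm38 were used for libraries made with a stranded mRNA kit. The labels give Zeitgeber time 9 for the collection of tissue and another for experiments in general. The 5 closing lines of each file, which name no gene, were left out; they held 4.45% to 6.66% (no gene), 0.706% to 0.939% (ambiguous) and 26.9% to 34.8% (not unique) of the total. Names and positions came from GENCODE M21, promoters from RefSeq (GRCm38.p6).

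Groups were taken from the labels. A gene entered the tests if any kidney reached 1 CPM, in R 4.3.3 with edgeR 4.0.16 (TMM, 1 model of 4 groups, quasi-likelihood tests). The Benjamini-Hochberg adjustment was made over both sexes together for genotype, otherwise over all genes, at a threshold of 0.05; log2 CPM used a prior count of 2. Single values were compared by exact permutation. Depth was 19376152 to 28470831 reads, and a count of 3 was taken as the floor; intervals cover the spread between these mice. In simulated data for the male comparison (15703 genes, 200 changed by 1 on the log2 scale) 176 were recovered with 5 false calls. Kidneys of a group differed by more than sampling noise (chi-square per degree of freedom 9.24 to 91.1 over 60 pairs).

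All 7 factors, Pex5 and, per list, direction and sex, at most the 4 called genes of largest change were named, with the 3 most similar genes of each factor. For 1 called gene the values are not reported here. Other genes that a list is described by were chosen after their values were seen or serve as background. Factors, lists and tests were chosen with earlier results of these data known. Alternatives were limma-voom (limma 3.58.1), DESeq2 1.42.0, RLE scaling, 2 other filters, a replicate block, a hepatocyte marker covariate, each sex alone, adjustment within each sex and each kidney left out; leaving out the 5 kidneys high in hepatocyte markers was added after seeing the data. Python 3.11.15 was used for tables and plots, with pandas 2.3.3, scipy 1.17.1 and matplotlib 3.10.9.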

Additional observations from a re-analysis of the deposited data

Results flagged for a closer look

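Of the factors and the genes named with them, 3 had a genotype effect that differed between males and females by edgeR's test of the interaction. Among all tested genes 2.31% had such a call. The list genes were named for a call in males or females, so this number is a description only. Listed genes beyond the naming limit are not part of it. For Tfec the male effect minus the female effect was -0.75 on the log2 scale (adjusted p = 0.00575), with lower values in 6 of 6 cKOm kidneys than in any Ctrlm kidney. For the lysosomal enzyme Glb1 it was -0.65 (adjusted p = 0.00272), and for the brush border cadherin Cdhr2 it was 0.48 (adjusted p = 0.0441). The Cdhr2 difference was not called with RLE scaling, with either other filter, with the replicate block, with the hepatocyte covariate or without the hepatocyte-rich kidneys, and it was lost in 20 of 24 fits that left out a single kidney.

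A single kidney lay far from the other 5 of its group in 11 of 100 combinations of gene and group. A rate of about 1 in 20 by chance would hold for independent values. These combinations share kidneys, and the list genes were named for a call, so the number is a description only. For the factors themselves this was the Hnf4g level of 2.93 CPM in Ctrlf 4, beside at least 6.94 CPM in the other Ctrlf kidneys. Pou3f3 was high in Ctrlm 4 (106 CPM) and cKOm 4 (142 CPM) and low in Ctrlf 5 (87.5 CPM). Ctrlf 5 was also high in G6pc (609 CPM, the next at 327 CPM), and Ctrlf 1 in Baat (23.7 CPM). Ctrlm 3 was high in Cdhr2 (51.4 CPM) and Ctrlm 6 in Pdk4 (90.3 CPM, the next at 30.6 CPM). In cKOf kidneys, replicate 6 was high in Ass1 (1157 CPM) and Sqstm1 (384 CPM), and replicate 2 was low in Neu1 (343 CPM). No cause was tested for these values.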

How the results depend on the processing

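The fall of Tfec in cKOm kidneys and its difference between the sexes kept their direction and call in every fit that was run, and Nr1h4 kept its calls between male and female kidneys. The number of factors called was 1 in males and 0 in females in every fit. Between cKOm and cKOf it was 2, but 4 with DESeq2 and 1 both with every gene that had a count and without the hepatocyte-rich kidneys, and from 1 to 3 as single kidneys were left out. Between male and female controls it was 2, but 3 with DESeq2, and from 1 to 3 as single kidneys were left out.

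Over all genes, the calls between cKOm and Ctrlm numbered 824 with the hepatocyte covariate and 599 without the hepatocyte-rich kidneys, in place of 1456; fewer kidneys entered the last fit. Calls in females numbered 83 without those kidneys and 43 with adjustment within each sex, in place of 137. The interaction had 574 with DESeq2 in place of 372. Male against female controls had 1719 with the covariate and 1570 without those kidneys, in place of 2707. The cause was not tested. As single kidneys were left out, calls ranged from 1152 to 1726 in males, 108 to 173 in females, 282 to 476 for the interaction, 2333 to 2936 between controls and 1040 to 1506 between cKO kidneys.

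Values near 0 changed sign. Without the hepatocyte-rich kidneys the interaction was -0.0333 for Maf and 0.165 for Nr1h4, and Pax8 differed by -0.0146 between controls. For Esrra this last difference was -0.00391 with limma-voom and -0.0726 with the covariate. As single kidneys were left out, the difference in the Hnf4g to Hnf4a ratio ranged from -0.0499 to 0.209 in males and from -0.271 to 0.0705 in females. Genotype effects in females then ranged from -0.0767 to 0.161 for Hnf4g and from -0.00524 to 0.0955 for Tfec. The interaction ranged from -0.0259 to 0.0923 for Hnf4a, -0.134 to 0.0165 for Pax8 and -0.135 to 0.0643 for Nr1h4, and the difference between controls from -0.0688 to 0.0766 for Pax8, -0.0238 to 0.128 for Maf and -0.0598 to 0.0686 for Esrra. Of the values of the 7 factors over all comparisons, 19 of those with a kidney left out changed sign, 8 lost and 6 gained a call, and 807 kept both.

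Kidneys with the same number come from different mice, and their deviations did not go together (r from -0.20 to 0.12 over 36 pairs). With the number as a replicate block, 1268 genes were called in males, 110 in females, 271 for the interaction, 2415 between controls and 1140 between cKO kidneys, and the same number of factors was called in each comparison. Hnf4g and Tfec rest on the fewest reads.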
